A study of Mus musculus with 20 samples.

Results

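Gata2, Gata3, Gata4, Gata5 and Gata6 encode GATA transcription factors, and they were taken by name, 5 of the 21938 protein-coding genes in the annotation. Gata1, the other GATA factor gene, was not among them and is described with the relatives and cofactors. For each gene, every peak of the repressive histone mark H3K27me3 within 5 kb of a transcription start site (TSS) was collected from 10 libraries. Peaks of the reprogramming factor KLF4 and positions of JMJD3 were collected within 50 kb of the gene.

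GATA factors bind the DNA letters GATA through zinc fingers and direct cells into particular lineages. Gata2 maintains blood stem and progenitor cells, and Gata3 directs T cell development and also acts in skin, mammary gland and trophoblast. Gata4, Gata5 and Gata6 act in heart, gut and extraembryonic endoderm. H3K27me3 is written by Polycomb group complexes and is known to cover genes of lineages that a cell has not adopted. JMJD3, encoded by Kdm6b, removes it.

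The cells were mouse embryonic fibroblasts (MEFs), stromal cells of the embryo that become pluripotent when viruses supply the 4 factors OSKM (Oct4, Sox2, Klf4, c-Myc). Chromatin immunoprecipitation followed by sequencing (ChIP-seq) gave the 14 peak lists used here, each from 1 library. Wild-type (WT, Jmjd3+/+) cells were labelled as strain C57BL/6J-OG2 and knockout (KO, Jmjd3-/-) cells as strain C57Bl6J, so genotype and labelled strain cannot be told apart. H3K27me3 was measured in MEFs of each genotype at day 0 with no virus, and at day 5 and day 10 after the first OSKM infection, in cells that also received a FLAG vector (the control) or a vector for mouse JMJD3. KLF4 was measured at day 5 in WT OSKM cells with FLAG or JMJD3. FLAG-tagged JMJD3 was measured at day 5 in WT cells with OSKM or with a lower amount of KLF4 virus (OSlowKM). The protocol describes retroviral infection and medium with vitamin C, whereas a label field calls the delivery lentiviral. The labels call the infected cells presumed intermediates of reprogramming. A library therefore averages cells at different stages, and a peak cannot be assigned to one kind of cell.

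The H3K27me3 lists held 3045 to 6954 peaks, each 1000 bp wide, the KLF4 lists 10655 (FLAG) and 14391 (JMJD3) peaks, and the JMJD3 lists 14067 (OSKM) and 2284 (OSlowKM) positions of 1 bp. Read numbers were not used here. Peak lists gave no direct check of the fibroblast identity. Of 8 fibroblast genes, 1 carried an H3K27me3 peak in WT MEFs (Thy1) and 0 did in KO MEFs. Of 6 pluripotency genes, 3 carried one in WT MEFs and 2 in KO MEFs. The shares of all protein-coding genes were 14.6% (WT) and 10.3% (KO), so the fibroblast count was close to that of any genes. With 1 library per group there was no replicate and no spread between replicates, and no test was made, and every difference below is a difference between single libraries.

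The regions on which the comparisons turned are shown first. The promoters of Gata2, Gata3 and Gata5 are the 250 bases before the RefSeq start of each gene (build GRCm38.p6, the sequence of mm10), and they show how rich in CpG these starts are, as CpG-rich starts are known to be typical of Polycomb targets. Capitals mark CpG. Of the 5 genes, 3 were matched in the promoter table, and Gata4 and Gata6 were not.

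Gata2 promoter, chr6:88193641-88193890, plus strand: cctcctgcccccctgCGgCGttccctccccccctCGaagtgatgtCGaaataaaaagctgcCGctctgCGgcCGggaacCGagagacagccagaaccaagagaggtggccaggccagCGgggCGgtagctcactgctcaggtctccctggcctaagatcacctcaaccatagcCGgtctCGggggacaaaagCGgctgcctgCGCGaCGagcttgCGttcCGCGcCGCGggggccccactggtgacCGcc
Gata3 promoter, chr2:9878601-9878850, minus strand: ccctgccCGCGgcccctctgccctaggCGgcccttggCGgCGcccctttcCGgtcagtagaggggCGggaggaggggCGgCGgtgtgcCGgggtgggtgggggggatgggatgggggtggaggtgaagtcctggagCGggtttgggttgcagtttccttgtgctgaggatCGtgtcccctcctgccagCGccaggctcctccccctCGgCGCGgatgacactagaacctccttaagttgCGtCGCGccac
Gata5 promoter, chr2:180334680-180334929, minus strand: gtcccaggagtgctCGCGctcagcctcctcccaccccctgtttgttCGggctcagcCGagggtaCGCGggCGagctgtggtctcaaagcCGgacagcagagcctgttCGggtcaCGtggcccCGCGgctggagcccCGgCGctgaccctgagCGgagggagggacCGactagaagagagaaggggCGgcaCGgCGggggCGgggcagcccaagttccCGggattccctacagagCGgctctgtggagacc

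The Gata2 promoter held 22 CpG, the Gata3 promoter 19 and the Gata5 promoter 22, against a median of 6 over 32851 promoters of this length. As many CpG as in Gata2 or Gata5 were found in 14.8% of those promoters, and as many as in Gata3 in 19.7%. A peak overlapped the Gata5 promoter window in 8 libraries, the Gata2 window in 3 (MEF WT, day 10 WT FLAG and day 10 WT JMJD3) and the Gata3 window in 0.

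The second set of sequences are windows of 200 bp around the midpoints of KLF4 peaks in day 5 WT cells with JMJD3, shown because they are the KLF4 sites nearest to Gata2 and Gata3 in that library. Capitals mark the KLF strings GGGCGTG and GGGTGTG and the GC box GGGCGG, which the Sp and KLF factors are known to bind, on either strand. The GC box was added after the windows had been read, and it cannot match from the same first base as either KLF string.

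Gata2 upstream site, chr6:88189718-88189917, plus strand: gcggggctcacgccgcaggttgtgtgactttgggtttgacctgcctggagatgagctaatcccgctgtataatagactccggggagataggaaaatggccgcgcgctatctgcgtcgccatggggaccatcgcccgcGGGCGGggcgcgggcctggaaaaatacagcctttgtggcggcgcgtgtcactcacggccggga
Gata2 coding exon site, chr6:88204523-88204722, plus strand: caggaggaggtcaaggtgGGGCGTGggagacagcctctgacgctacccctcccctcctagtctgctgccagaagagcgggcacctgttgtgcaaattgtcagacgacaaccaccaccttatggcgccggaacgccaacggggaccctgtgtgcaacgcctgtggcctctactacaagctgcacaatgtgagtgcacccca
Gata2 distal site, chr6:88232337-88232536, plus strand: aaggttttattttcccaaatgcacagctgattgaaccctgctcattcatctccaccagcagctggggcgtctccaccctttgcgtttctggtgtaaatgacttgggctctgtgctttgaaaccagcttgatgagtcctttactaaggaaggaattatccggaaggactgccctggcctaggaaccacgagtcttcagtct
Gata3 upstream site, chr2:9879582-9879781, minus strand: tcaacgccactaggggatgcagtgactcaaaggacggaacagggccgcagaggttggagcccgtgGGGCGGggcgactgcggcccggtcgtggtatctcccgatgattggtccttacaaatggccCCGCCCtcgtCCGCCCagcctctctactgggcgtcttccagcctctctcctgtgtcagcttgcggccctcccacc

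The coding exon site of Gata2 held 1 KLF string (GGGCGTG), the upstream site of Gata2 held 1 GC box, the upstream site of Gata3 held 3, and the distal site held neither. The KLF string lay near the edge of its window. The window of the KLF4 peak of FLAG cells at this exon, whose midpoint was 23 bp away, held 0 KLF strings, as did that of the JMJD3 position there. Over all KLF4 peaks of that library, 39.9% of such windows held a KLF string and 49.8% held a GC box. In the FLAG library these shares were 42.4% and 49.4%. At positions of JMJD3 they were 16.1% and 20.9% with OSKM and 8.8% and 18.6% with OSlowKM. None of the 3 printed promoters held a KLF string, which 13.8% of all promoters did, while Gata2 held 1 GC box and Gata3 and Gata5 each held 2, against 32.7% of all promoters with at least 1.

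The mark was found at the 5 genes in nearly every library. Peaks of H3K27me3 lay within 5 kb of a TSS of all 5 genes in 9 of the 10 libraries, and of 4 genes in day 5 KO cells with JMJD3, where Gata2 had none. The share of all protein-coding genes with such a peak was 14.6% in MEF WT and 10.3% in MEF KO. It was 14.7% (FLAG) and 11% (JMJD3) in day 5 WT cells and 13.7% and 13% in day 5 KO cells. The day 10 shares were 12.1% (FLAG) and 8.26% (JMJD3) for WT and 12.8% and 11.7% for KO cells.

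Most protein-coding genes were not marked in any library. Gata3, Gata4, Gata5 and Gata6 had a peak in all 10 libraries, as did 1026 protein-coding genes (4.68%). Gata2 had one in 9, and at least 9 were reached by 1516 genes (6.91%). A peak in at least 1 library was found at 22.4% of genes. Within the narrower 2 kb window the counts of 3 members were lower, and in shorter lists mainly that of Gata2. Within 2 kb of a TSS, Gata3 was marked in 8 libraries, Gata4 in 6 and Gata6 in 9. With lists cut by score to equal length, Gata2 was marked in 5 and each other member in 10, and with only the top 50% of every list by score Gata2 was marked in 4 and Gata3 in 9. The median number of libraries in the 5 kb window was 10 for the 5 genes and 0 for all protein-coding genes.

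**Figure D1:**
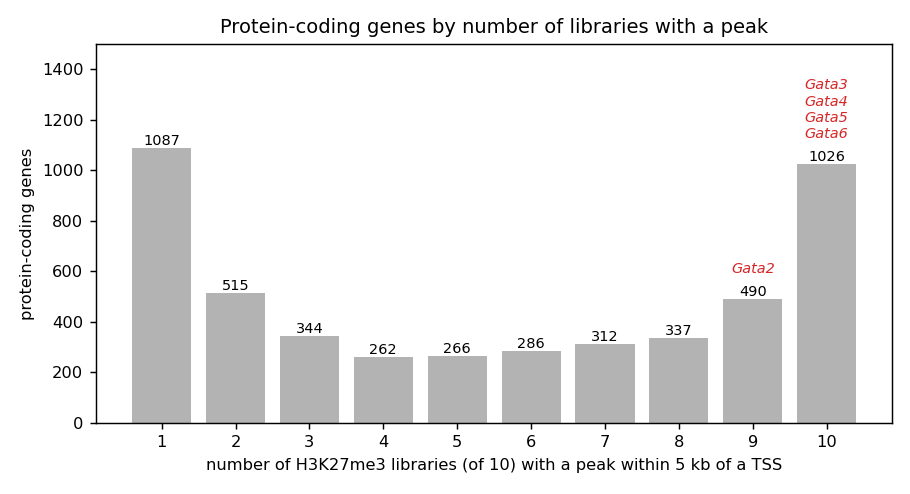
Protein-coding genes (y axis, number) by the number of H3K27me3 libraries, from 1 to 10, in which they had a peak within 5 kb of a TSS (x axis). The names of the GATA genes stand above their bars, with Gata2 at 9 libraries and the other members at 10, and genes with no peak in any library are not drawn.

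The number of peaks differed between members. Over the 10 libraries, 83 peaks lay within 5 kb of a TSS, 12 at Gata2, 18 at Gata3, 22 at Gata4, 10 at Gata5 and 21 at Gata6. As many peaks as at Gata4 were found at 0.287% of protein-coding genes, as many as at Gata6 at 0.346% and as many as at Gata3 at 0.761%. For Gata2 this share was 2.08% and for Gata5 6.02%. Gata4 has 3 annotated TSSs and Gata2 has 2, so more sequence was searched around them than around the other members, which have 1. Around the first TSS alone, a setting added once the data had been seen, Gata4 had 21 peaks, as many as Gata6, and the counts of the other members stayed the same. With lists cut by score to equal length, Gata4 had 14, Gata2 5 and Gata6 21, and within 2 kb Gata4 had 8, Gata3 8, Gata6 9 and Gata2 11. Gata5 had 10 in each of these settings.

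The strength of a peak was read as its rank by the peak caller's score, given as a percent of its list, so that a low percent is a strong peak. By the median over libraries, the best peak of Gata5 ranked highest (2.27%), followed by Gata4 (3.35%), Gata6 (4.20%), Gata3 (27.2%) and Gata2 (59.4%, over the 9 libraries with a peak). The ranges of Gata4, Gata5 and Gata6 overlapped, from 0.558% to 40.8%, from 0.260% to 31.1% and from 0.513% to 11.7%. Gata2 and Gata3 ranked below all 3 of these genes in every library except MEF KO, where Gata3 was above Gata4, and day 10 WT JMJD3, where Gata3 was above Gata5.

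A best peak among the top 10% of its list was found for Gata6 in 9 libraries, for Gata4 and for Gata5 in 8, for Gata3 in 1 and for Gata2 in 0. Among all protein-coding genes with a peak, 18.8% had one in MEF WT, 16.2% in MEF KO, 17.4% and 17.3% in day 5 WT cells (FLAG and JMJD3) and 15.7% and 18.7% in day 5 KO cells. At day 10 the shares were 16.1% and 13.8% for WT and 16.1% and 15.6% for KO cells. By library, 2 of the 5 genes were among the top 10% in MEF WT, 1 in MEF KO, 2 in day 5 WT JMJD3 and 3 in each of the other libraries.

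**Figure D2:**
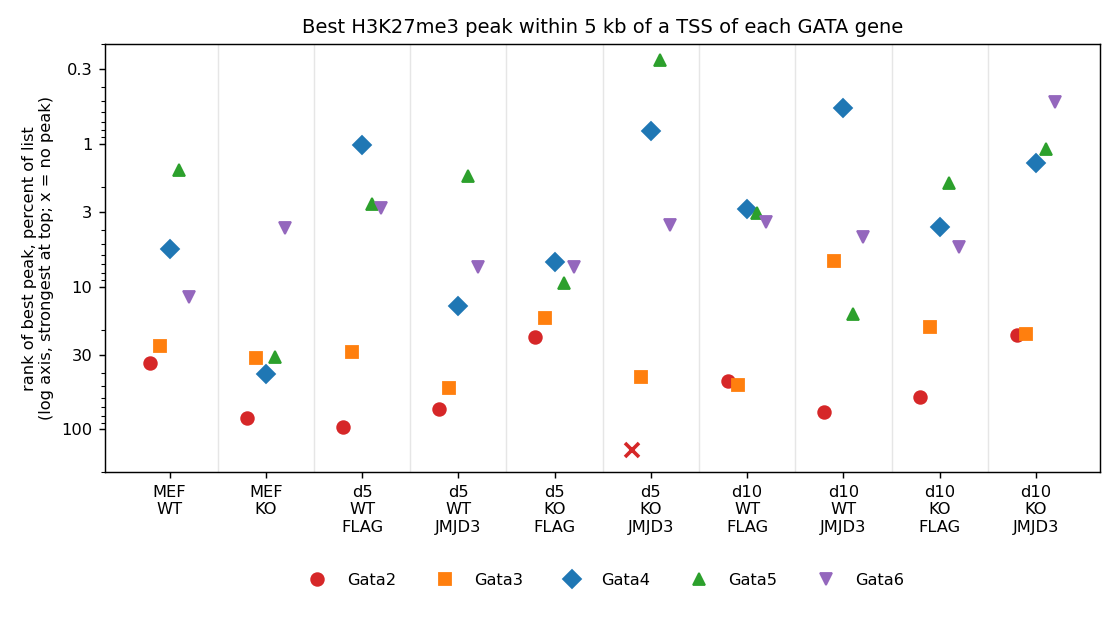
Rank of the best H3K27me3 peak within 5 kb of a TSS as a percent of its list (y axis, log scale, strongest at the top) in the 10 libraries (x axis), 1 point per gene and library. Gata4, Gata5 and Gata6 mostly lie above Gata2 and Gata3, and the cross marks day 5 KO cells with JMJD3, where Gata2 had no peak.

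Gata2, the blood progenitor factor (chr6:88193891-88207032, plus strand), carried the weakest marks by median rank. In day 10 WT FLAG it stood above Gata3, at 45.5% against 49.3%. Its best peak ranked at 34.0% of the list in WT MEFs and 83.2% in KO MEFs. In day 5 WT cells it ranked at 97.0% with FLAG and 71.5% with JMJD3, and in day 5 KO cells at 22.6% with FLAG, with no peak with JMJD3. At day 10 the values were 45.5% (FLAG) and 76.1% (JMJD3) for WT cells and 59.4% and 22.0% for KO cells. In list percent the peak thus stood higher with JMJD3 than with FLAG at day 5 in WT and at day 10 in KO cells. At day 10 in WT cells the percent was lower down the list but the rank itself was nearly the same, 2336.5 of 5131 peaks with FLAG and 2318.5 of 3045 with JMJD3.

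The centre of the Gata2 peak differed between libraries. Of its 12 peaks, 11 had their centre in an intron, between 293 and 3767 bp downstream of the first TSS, and 1 lay 2975 bp upstream, in day 5 WT cells with JMJD3. When peaks with centres within 1 kb of each other were joined, the 11 formed 1 site, called in 9 libraries. Movement of the mark was not tested. The first TSS was covered by a peak in MEF WT, day 10 WT FLAG and day 10 WT JMJD3, and in 0 of the KO libraries. In KO cells the centres lay at 2529 and 3129 bp in MEFs, 2965 bp at day 5 with FLAG, and 3160 bp (FLAG) and 811 bp (JMJD3) at day 10. No peak covered the second TSS, 4443 bp downstream of the first.

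Gata3, the T cell factor (chr2:9857078-9890034, minus strand), was marked on both sides of its TSS and farther upstream, with no peak over the TSS itself. Its best peak within 5 kb ranked at 25.9% in WT and 31.9% in KO MEFs. At day 5 it ranked at 28.5% (FLAG) and 51.1% (JMJD3) in WT and at 16.6% and 43.2% in KO cells. At day 10 it ranked at 49.3% and 6.58% in WT cells and at 19.1% and 21.5% in KO cells. At day 5 the best peak stood lower in the list with JMJD3 than with FLAG in both genotypes, and at day 10 in WT cells it stood higher.

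Peaks at Gata3 returned to the same places. When peaks with centres within 1 kb of each other were joined into sites, a site 1233 to 1890 bp downstream of the TSS was called in 8 libraries and a site 2785 to 3820 bp upstream in 7. A site 17467 to 19025 bp upstream, outside the 5 kb window, was called in 9, all but day 10 WT JMJD3. The site at 2785 to 3820 bp overlapped the noncoding gene 4930412O13Rik. It was absent from both MEF libraries and from day 5 WT JMJD3, and was called in the other 7. The MEF peaks upstream of the TSS that reached the window lay 5064 bp (WT) and 5425 bp (KO) upstream. They belonged to another site, 5064 to 7225 bp upstream, mostly outside the window. That site was called in 7 libraries, all but day 5 KO FLAG, day 10 WT JMJD3 and day 10 KO JMJD3.

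Gata4, a factor of heart and endoderm (chr14:63198922-63271692, minus strand), had peaks over the widest stretch of sequence, with 62 within 20 kb of the gene over the libraries, from 3 (day 10 WT JMJD3) to 8. The gene record is also the longest of the 5. Its best peak ranked at 5.45% in WT and 40.8% in KO MEFs. At day 5 it ranked at 1.03% (FLAG) and 13.8% (JMJD3) in WT and at 6.70% and 0.811% in KO cells. At day 10 it ranked at 2.86% and 0.558% in WT cells and at 3.84% and 1.37% in KO cells. KO MEFs were the library in which it stood lowest. There 3 peaks were called, with centres 3376, 4126 and 5426 bp downstream of the first TSS, and those at 3376 and 4126 bp overlapped.

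The strong peak of Gata4 kept to one place. A site 3376 to 5426 bp downstream of the first TSS, over a UTR exon, a coding exon and an intron, was called in all 10 libraries, with a median rank of 3.35%. A second site 23474 to 25912 bp upstream of the first TSS, inside the gene record but outside its basic transcripts, was also called in all 10, with a median of 22.3%. A peak covered the Gata4 TSS in 3 libraries, which were day 10 WT FLAG, day 10 KO FLAG and day 10 KO JMJD3. No MEF or day 5 library had a peak over it.

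Gata5, a factor of heart and gut (chr2:180325133-180334699, minus strand), was marked in the most compact way, with exactly 1 peak within 5 kb in each library. Its peak ranked at 1.52% in WT and 31.1% in KO MEFs. At day 5 it ranked at 2.65% (FLAG) and 1.68% (JMJD3) in WT and at 9.48% and 0.260% in KO cells. At day 10 it ranked at 3.06% and 15.6% in WT cells and at 1.88% and 1.09% in KO cells. As for Gata4, KO MEFs were the library in which it stood lowest, and day 5 KO cells with JMJD3 held its highest rank. There it was 1 of 33 peaks tied at the top score of 200.

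The centres of the Gata5 peak ran from 21 bp upstream to 674 bp downstream of the TSS, and the peak covered the TSS in 8 libraries, all but MEF KO and day 10 KO FLAG. The promoter printed above was overlapped in those 8 libraries and covered in full in 3. The antisense gene Gata5os overlaps this start, and a ChIP-seq peak has no strand, so the mark cannot be assigned to one of the 2 genes. The other sites within reach of Gata5 were called in at most 4 libraries. The most frequent, outside the gene and 15789 to 16229 bp downstream of the TSS, was called in all 4 KO libraries after infection and in 0 of the other libraries. Its peaks were weak, ranking at 56.2% to 91.5% of their lists, and a difference between genotypes was not tested.

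Gata6, a factor of endoderm and heart (chr18:11052064-11085635, plus strand), had peaks at a pair of sites on either side of its TSS. Peaks were called 1000 bp wide in every list, so the extent of the mark between the sites was not measured. The best Gata6 peak ranked at 11.7% in WT and 3.91% in KO MEFs. At day 5 it ranked at 2.83% (FLAG) and 7.33% (JMJD3) in WT and at 7.25% and 3.70% in KO cells. At day 10 it ranked at 3.56% and 4.48% in WT cells and at 5.30% and 0.513% in KO cells. This was the narrowest range in list percent of the 5 genes. In list percent KO MEFs stood above WT MEFs, while at the other members they stood below. By rank itself, in lists of different length, Gata3 also stood higher in KO MEFs, at 1311.5 against 1803.

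Both Gata6 sites were called in all 10 libraries. The upstream site, 3211 to 4250 bp before the TSS and over the noncoding gene 1010001N08Rik, had a median rank of 12.3%. The downstream site, 2022 to 2639 bp after the TSS and over a coding exon, had a median of 4.20%. No peak covered the Gata6 TSS in any library. A site 7241 to 8542 bp downstream, in an intron, was called in 6 libraries.

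**Figure D3:**
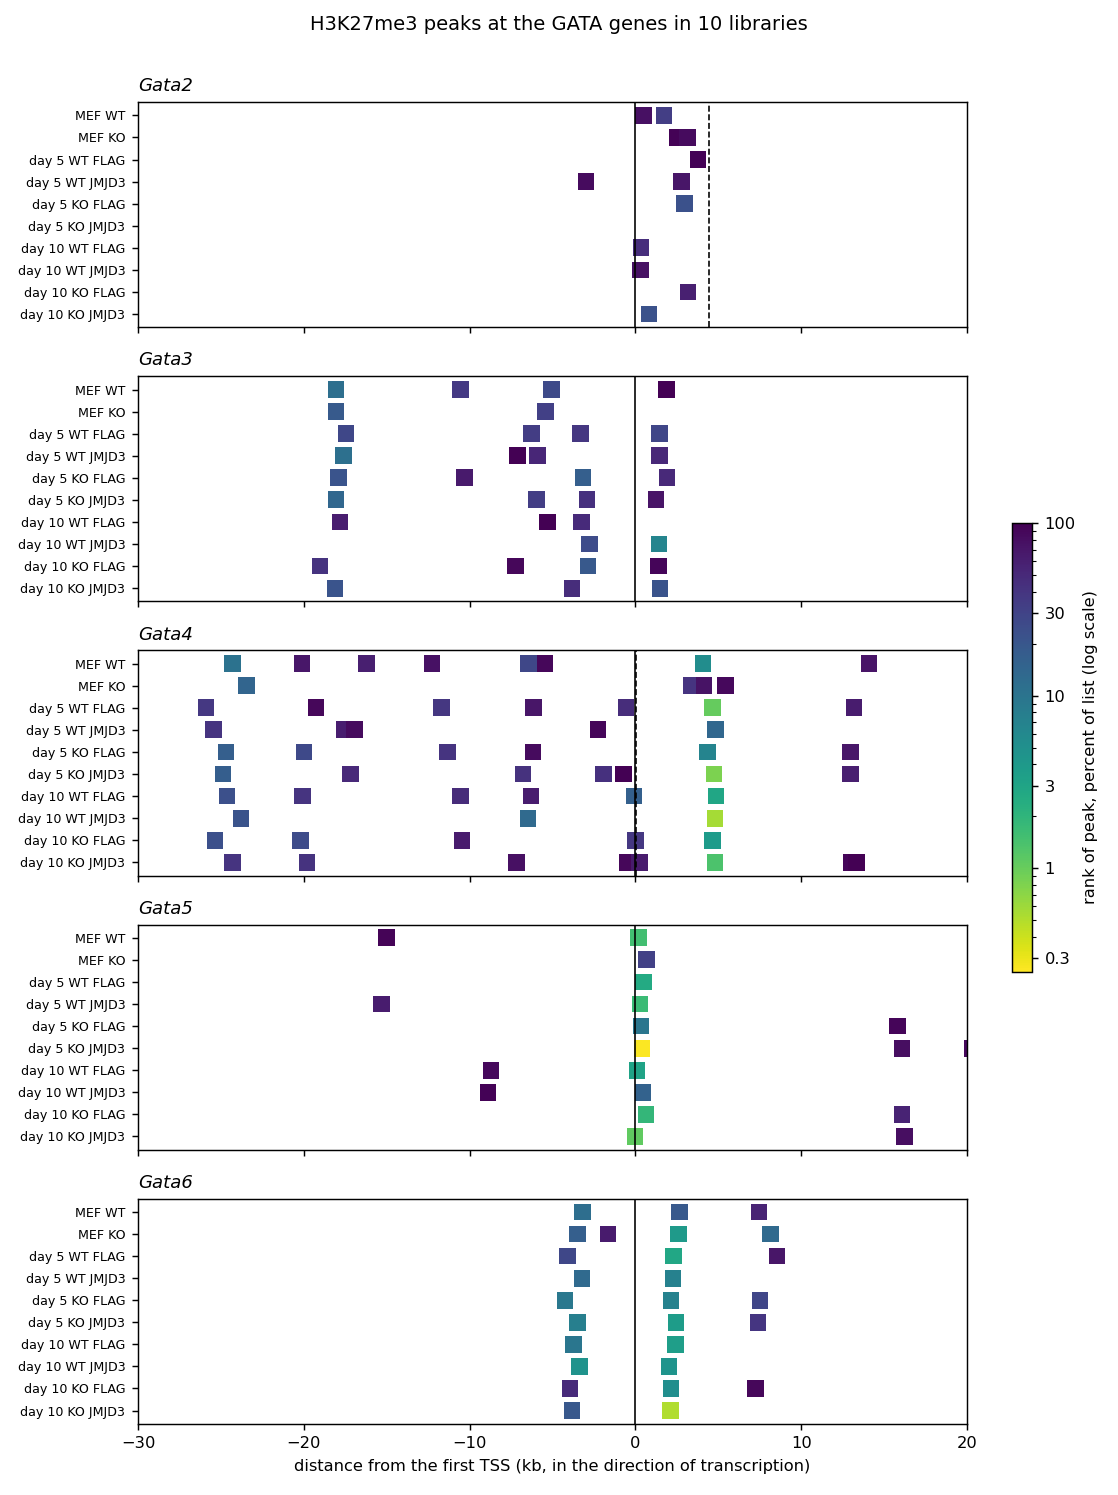
H3K27me3 peaks (boxes 1 kb wide) at each GATA gene, by distance in kb from the first TSS in the direction of transcription (x axis), in the 10 libraries (rows). The colour gives the rank of the peak as a percent of its list on a log scale (yellow is strongest), solid lines mark the first TSS and dashed lines further TSSs, and peaks and TSSs beyond the drawn range are left out. Gata5 shows 1 column of boxes at the TSS, Gata6 a column on each side of it, and Gata4 a strong column downstream of it.

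Across the 83 peaks, a TSS was covered by 15, of which 8 were at Gata5, 4 at Gata4 and 3 at Gata2. Peak centres lay in introns in 26 cases, coding exons in 22 and UTR exons in 4, in the gene record outside basic transcripts in 18, and outside the gene in 13.

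The study asked what exogenous JMJD3 does to H3K27me3, and each vector pair was compared by calling a gene lost when FLAG cells had a peak at it and JMJD3 cells did not. Of the 5 GATA genes, 0 were lost in day 5 WT cells (31.8% of all marked genes were), 1 in day 5 KO cells (Gata2, against 20.5%), 0 in day 10 WT cells (41.3%) and 0 in day 10 KO cells (25.1%). All 5 already had a peak with FLAG in each pair, so 0 of 0 could be gained, where at day 5 1.12% of WT and 2.48% of KO genes unmarked with FLAG were marked with JMJD3, and at day 10 1.3% and 2.42%. Counted in peaks, the 5 genes had 9 with FLAG and 8 with JMJD3 in day 5 WT cells, 7 and 8 in day 5 KO cells, 8 and 7 in day 10 WT cells and 8 and 9 in day 10 KO cells. The numbers thus went down by 1 peak in both WT pairs and up by 1 in both KO pairs, and within 20 kb of the genes they went from 17 to 15 and from 16 to 10 in WT and from 16 to 18 and from 17 to 16 in KO cells. The whole lists moved from 6428 to 5064 and from 5131 to 3045 peaks in WT and from 5643 to 6539 and from 5376 to 4878 in KO cells. With all lists cut by score to 3045 peaks, the 5 genes had 7 peaks with FLAG and 5 with JMJD3 in day 5 WT cells, 7 and 6 in day 5 KO cells, 7 and 7 in day 10 WT cells and 6 and 7 in day 10 KO cells, so the split between genotypes did not hold at equal list length.

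Genotypes were compared in the same manner. Of the 5 genes, 0 had a peak in WT MEFs and none in KO MEFs, where 35.6% of the genes marked in WT MEFs had lost theirs. The counts were 0 with FLAG at day 5 (17.9%) and at day 10 (18.4%), 1 with JMJD3 at day 5 (Gata2, against 9.16%) and 0 with JMJD3 at day 10 (12%). The 5 genes had 9 peaks in WT and 10 in KO MEFs within 5 kb, and 19 and 13 within 20 kb of the genes. The wider count was lower in KO MEFs mainly at Gata4, which went from 8 peaks to 4. Under some other settings the gene counts differed. With lists cut by score to equal length, Gata2 had 1 peak in WT and 0 in KO MEFs, 1 and 0 at day 10 with FLAG, and 0 and 0 at day 5 with JMJD3. Within 2 kb of a TSS, Gata3 had 1 and 0 in MEFs and Gata4 1 and 0 at day 5 with FLAG. Shares of all genes were not computed at these settings.

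Time was compared in the FLAG libraries, which share the MEF list of their genotype. The mark was not lost at any of the 5 genes from MEFs to day 5 in WT (22.2% of marked genes lost it) or KO cells (15.2%), or from MEFs to day 10 in WT (36.6%) or KO cells (23.5%). In KO cells the best peak of Gata4 stood at 40.8%, 6.70% and 3.84% in MEFs, at day 5 and at day 10, and that of Gata5 at 31.1%, 9.48% and 1.88%. In WT cells Gata4 stood at 5.45%, 1.03% and 2.86% and Gata5 at 1.52%, 2.65% and 3.06%. Gata6 stood at 3.91%, 7.25% and 5.30% in KO and at 11.7%, 2.83% and 3.56% in WT cells. Gata3 stood at 31.9%, 16.6% and 19.1% in KO and at 25.9%, 28.5% and 49.3% in WT cells, and Gata2 at 83.2%, 22.6% and 59.4% and at 34.0%, 97.0% and 45.5%. The 5 genes thus had no common order over time in either genotype. The lists differed in length, with 4113, 5643 and 5376 peaks in KO and 6954, 6428 and 5131 in WT cells, and the part of this in the ranks was not tested. Under some other settings the mark was lost at a member. With lists cut by score to equal length, Gata2 had 1 peak in WT MEFs and 0 at day 5 in WT cells. Within 2 kb of a TSS, Gata3 had 1 in WT MEFs and 0 at day 10 in WT cells. Shares of all genes were not computed at these settings.

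Binding of KLF4 and JMJD3 was uneven among the 5 genes. In FLAG cells 3 of the 5 genes had a KLF4 peak within 50 kb, as did 3 in JMJD3 cells, and such a position was found at 59.5% and 67.2% of protein-coding genes. JMJD3 lay within 50 kb of 2 genes with OSKM and 1 with OSlowKM, against 55.6% and 14.1%. Gata5 and Gata6 had 0 positions in each of the 4 lists. Gata2 had 2 KLF4 peaks with FLAG, 3 with JMJD3, 3 JMJD3 positions with OSKM and 0 with OSlowKM.

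At Gata2, KLF4 in FLAG cells lay 94 bp downstream of the first TSS, in the UTR exon, and 10754 bp downstream, in a coding exon. In JMJD3 cells the first of these was not called, and KLF4 lay at the 3 sites printed above, 4074 bp upstream, 10731 bp downstream and 38545 bp downstream of the first TSS. The last of these is 25404 bp past the end of the gene and lies over Dnajb8. JMJD3 with OSKM lay 3994 bp upstream, 10821 bp downstream and 38483 bp downstream, that is 80, 90 and 62 bp from the 3 KLF4 midpoints of JMJD3 cells. The 2 assays were separate libraries, and no JMJD3 position of the OSlowKM library fell within 50 kb of the gene. The KLF4 peak at 94 bp overlapped the H3K27me3 peaks of MEF WT, day 10 WT FLAG and day 10 WT JMJD3, and no day 5 H3K27me3 peak overlapped it.

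**Figure D4:**
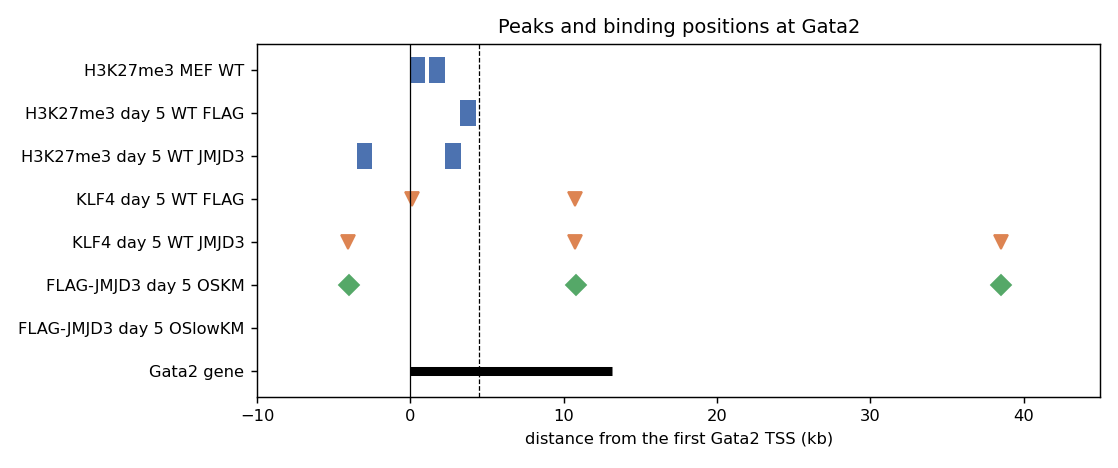
H3K27me3 peaks (blue boxes) of MEF WT and day 5 WT cells, KLF4 peaks (orange triangles) and JMJD3 positions (green diamonds) by distance in kb from the first Gata2 TSS (x axis). The black bar is the gene, the dashed line the second TSS, and in the 3 places where JMJD3 was called with OSKM a KLF4 peak of JMJD3 cells lay within 90 bp.

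At Gata3, KLF4 lay 1038 bp upstream of the TSS with FLAG and 1081 bp upstream with JMJD3, midpoints 43 bp apart, between the H3K27me3 sites on either side of the TSS. No JMJD3 position was called within 50 kb of it. At Gata4, whose gene record runs far past its first TSS, KLF4 lay 67266 bp (FLAG) and 67317 bp (JMJD3) downstream of the first TSS. These peaks were 20917 and 20968 bp past the gene and 212 and 161 bp from the start of Fdft1, a neighbouring gene of sterol synthesis, and a further peak with JMJD3 lay 80311 bp downstream within Fdft1. JMJD3 lay 48477 bp upstream of the first Gata4 TSS with OSKM and 48459 bp upstream with OSlowKM, 18 bp apart. This was the one place at the GATA genes where a JMJD3 position was called at both amounts of KLF4.

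Likeness between members was read as the root mean square difference of the percentile of the best peak over the 10 libraries, with 0 where there was no peak. Gata4 and Gata5 were the closest pair, 7.05 percentage points apart, followed by Gata5 and Gata6 (10.1) and Gata4 and Gata6 (12.1). Gata3 lay 27.2 to 29.2 points from each of these 3, and Gata2 lay 41.9 points from Gata3 and 60.2 to 62.9 from the others. The points share the 10 libraries and no test was made.

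By the same measure, the genes nearest to Gata4 among all protein-coding genes were C1ql2 (3.22 points), Ikzf3 and Zpbp2 (4.37 each, neighbours that were assigned the same peaks). Those nearest to Gata5 were Lin28a (4.10), Crhr1 (4.58) and Htr6 (4.73), and those nearest to Gata6 included Fbll1 (2.99) and Car4 (3.42). Gata3 lay nearest to Tmem150c (11.6), Mmd2 (12.8) and Matn4 (13.8). Gata2 had no close match, the nearest being Ebf1 (14.7), a B cell factor, Zbtb42 (22.1) and Hectd2 (22.6).

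Other genes of the GATA pathways were read beside all protein-coding genes, of which 4.68% had a peak in all 10 libraries and 77.6% in 0. Of 9 relatives and cofactors, 1 had a peak in all 10 libraries and 6 in 0, with a median of 0 libraries, so the share without a peak was near that of all genes. The marked genes were Tal1, a partner of Gata2 in blood progenitors (10 libraries, 25 peaks), Lmo2, which bridges the pair (9 libraries), and Zfpm1, the GATA cofactor FOG1 (8 libraries, all but the MEFs). The family member Gata1, known for red cell development, and the GATA-type repressor Trps1 had 0.

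The lineage partners of Gata4, Gata5 and Gata6 carried the mark more widely. Of 7 heart partners, 3 were marked in all 10 libraries (Nkx2-5, Tbx5 and Hand1, all heart transcription factors), 1 was marked in 0 (Mef2c), and the median was 9. Of 8 endoderm partners and targets, 5 were marked in all 10 (Sox7, Sox17, Foxa1 and Foxa2 among them), 2 in 0 (Hnf4a and Dab2), and the median was 10. Pdgfra, a receptor of mesenchyme and primitive endoderm, was marked in the 8 libraries after infection and in neither MEF library. The median of all protein-coding genes was 0, and the lists were small and chosen with results known.

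**Figure D5:**
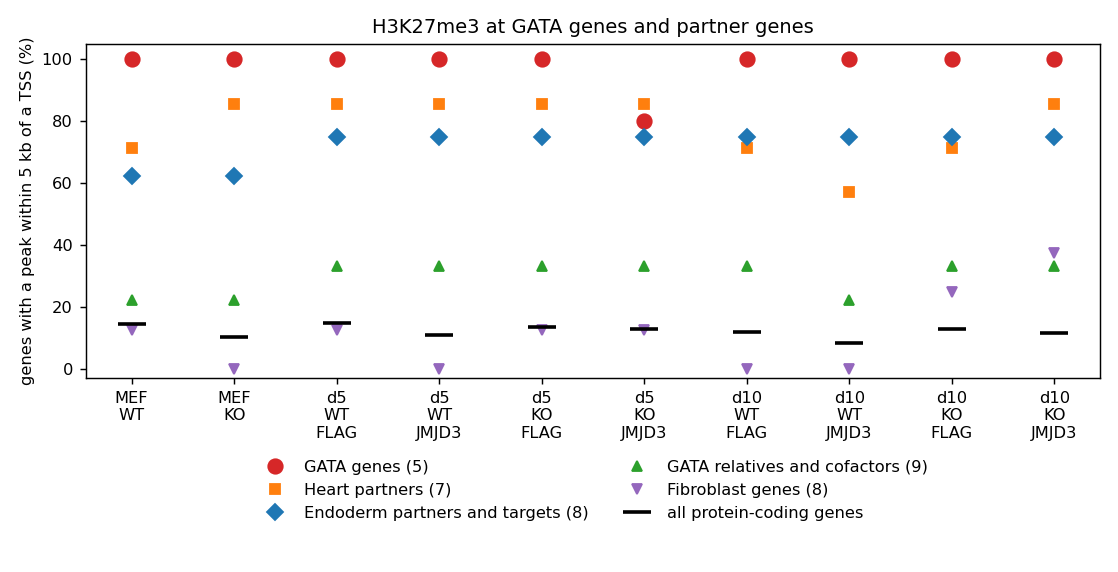
Percent of genes marked by H3K27me3 within 5 kb of a TSS (y axis) in each of the 10 libraries (x axis), for the 5 GATA genes, 3 lists of related genes, a list of fibroblast genes and all protein-coding genes (black bars), with the number of genes of each list in the key. The GATA genes stand at all 5 marked except in day 5 KO cells with JMJD3, and the heart and endoderm lists stand above the relatives and cofactors in every library.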

How the data were processed

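Peak lists of 14 libraries were used, of 20 samples in all. The remaining 6, inputs and H3K27ac, were left out. Groups were read from the labels. Each had 1 library, and no p-value was computed. As the methods describe, reads were aligned by the authors to mm10 with bowtie2 (the submitters' processing notes name Bowtie2 2.2.0). Each of the 14 libraries has its own peak list. DFilter was used for H3K27me3, and KLF4 and JMJD3 peaks came from MACS2. Drosophila chromatin served as a spike-in for H3K27me3. The methods say that mouse reads were scaled by the number of mapped Drosophila reads, with no statement on whether peak calling used this. A number of peaks is therefore not an amount of the mark. In the deposited H3K27me3 lists each peak has a score from the authors' peak caller, between 6.56 and 200 in units left unstated. Scores were compared only as ranks within a list, with ties at their mean rank. The deposited KLF4 and JMJD3 lists give positions without a score. Read depth behind the lists was not used here, and a deeper library can give a longer list.

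Basic transcripts of GENCODE M21 (GRCm38) gave the TSSs. A gene was marked when a peak overlapped the window of 5 kb around any of its TSSs by at least 1 bp. KLF4 peaks and JMJD3 positions were taken when they overlapped the gene record extended by 50 kb on each side. Their places are given as midpoint distance to the first TSS. Motifs were matched as fixed strings in windows of 200 bp. The lists of pathway genes and the rule for the nearest genes (the 3 with the smallest difference, without genes whose TSS lay within 50 kb of the member) stood in the plan, and some items of these are not reported here. The members and lists were chosen with earlier results of these data known. Alternatives covered the window, the overlap rule, the TSS set, list length and, for binding, the distance and width. The search for peaks was tested on simulated data, with 200 of 200 planted genes found, and checked against bedtools 2.31.1. Python 3.11.15, pandas 2.3.3, pysam 0.24.0 and samtools 1.23.1 were used.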

Additional observations from a re-analysis of the deposited data

Results flagged for a closer look

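Results below were picked out because a GATA gene moved one way from FLAG to JMJD3 in WT cells and the other way in KO cells. Each group was 1 library, so the difference between genotypes was not tested. Positive differences in list percent mean a lower place in the list with JMJD3.

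In number of H3K27me3 peaks within 5 kb, Gata2 at day 5 changed by 1 in WT and by -1 in KO cells, Gata4 at day 5 by -1 and 2, and Gata4 at day 10 by -1 and 1. Such opposite changes were seen at 5.45% of 3909 protein-coding genes with a peak in at least 1 of the 4 libraries of day 5 and at 6.76% of 3637 at day 10. With lists cut by score to equal length, Gata2 at day 5 had 0 peaks with FLAG and 0 with JMJD3 in WT and 1 and 0 in KO cells, and Gata4 at day 10 had 2 and 1 in both genotypes, so these pairs were no longer opposite. Gata4 at day 5 went from 2 to 1 in WT and from 1 to 2 in KO cells.

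In list percent of the best peak at day 5, Gata4 changed by 12.7 percentage points in WT and -5.89 in KO cells, and Gata6 by 4.49 and -3.55. At day 10, Gata2 changed by 30.6 and -37.4, Gata3 by -42.7 and 2.36, Gata5 by 12.5 and -0.792, and Gata6 by 0.926 and -4.79. By list percent, opposite directions were seen at 2 of the 4 members with a peak in all 4 libraries of day 5 and at 4 of 5 at day 10. Among all protein-coding genes with a peak in all 4 libraries of a day, the share was 41.7% of 1978 genes at day 5 and 48.3% of 1380 at day 10. The lists differed in length, at day 10 in WT cells 5131 against 3045 peaks. By rank itself, a setting added once the data had been seen, 2 of 4 members were opposite at day 5 (Gata4 and Gata6) and 2 of 5 at day 10 (Gata3 and Gata5), against 37.7% and 47.6% of all such genes. Gata2 and Gata6 were then no longer opposite at day 10, with ranks in WT cells of 2336.5 (FLAG) and 2318.5 (JMJD3) for Gata2 and 182.5 and 136.5 for Gata6.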

How the results depend on the processing

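No paired analysis was possible because each group had 1 library, so no 2 groups share more than 1 replicate number, and leaving out a library leaves its group empty. A fit of vector over the 4 FLAG and JMJD3 pairs, which would take genotypes and days as replicates, was not made. Within 10 kb of a TSS, and with peak centres required in the window, the number of marked GATA genes stayed at 4 or 5 in each library and no count of peaks moved by over 1.5 times. Within 2 kb, 3 genes were marked in MEF WT and 3 in MEF KO, and the peaks numbered 4 in MEF WT, MEF KO, day 5 KO FLAG, day 10 WT FLAG and day 10 WT JMJD3 and 5 in day 5 WT FLAG, day 5 WT JMJD3, day 5 KO JMJD3 and day 10 KO FLAG. In the MEF libraries the genes without a peak at that distance were Gata4 and Gata6 (WT) and Gata3 and Gata4 (KO). With the window centred on the 5-prime end of the gene record, which lies 26421 bp upstream of the first TSS at Gata4, 11434 bp at Gata3 and 406 bp at Gata6, other peaks were counted. They numbered 5 in day 5 KO JMJD3, day 10 WT FLAG, day 10 WT JMJD3 and day 10 KO JMJD3. Over all libraries there were then 10 peaks in place of 22 at Gata4 and 6 in place of 18 at Gata3, which was marked in 6 libraries. In the better-scoring 50% of each list, MEF KO had 5 peaks and day 5 WT JMJD3 had 4, at 3 genes. With all lists cut by score to 3045 peaks, MEF KO had 6 peaks and day 5 WT JMJD3 had 5. Within 10 kb of the gene, JMJD3 was at 1 gene with OSKM and 0 with OSlowKM. The KLF4 counts of 3 genes moved by at most 1 gene under the 4 alternatives tried. List length can limit a count, and its part in these counts was not tested. Gata2 had 0 peaks in day 5 KO JMJD3, a list of 6539, and 1 in day 10 WT JMJD3, the shortest list with 3045.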
